A study of Homo sapiens with 6 samples.

Results

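The genes described here are 10 genes grouped as AP-1 and EGR immediate early factors, namely FOS, FOSB, FOSL1, FOSL2, JUN, JUNB and JUND of AP-1, EGR1 and EGR3 of the EGR family, and IER2 of neither. They were chosen by name among the 58884 genes of the deposited table, with earlier results of these data known, and all 10 were found. RNA-seq had been performed on total RNA of a human immortalized ventricular cardiomyocyte line in which CIRBP had been knocked down by siRNA (SiCIRBP, 3 libraries) or which had received a negative control siRNA (NC, 3 libraries). CIRBP is the cold-inducible RNA-binding protein, and the comparison asks which transcripts differ when its mRNA is reduced. Both groups come from 1 cell line, called T0519 in the labels and AC16 in the paper, and both went through siRNA transfection, with no drug named for these libraries. The labels number the replicates without saying whether they came from separate cultures, so the p-values measure the spread between these libraries, which may be technical.

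Immediate early genes are transcribed within minutes of a growth factor, stress or wounding signal, without new protein synthesis, and most of their mRNAs are short-lived. FOS proteins pair with JUN proteins to form AP-1, which binds the TGACTCA site, and JUN proteins also pair with each other. EGR1 and EGR3 are zinc-finger factors that bind GC-rich sites, and IER2 encodes a small nuclear protein. In the heart, FOS, JUN and EGR1 are known as early responders to stretch, hypertrophic stimuli and ischemia.

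The estimated counts summed to between 25726259 and 29919566 per library, and levels are given as normalized counts (CPM, counts scaled to a common library total by TMM) or as TPM, which also correct for transcript length. CIRBP, the targeted gene, had 85.7 to 90.9 CPM in the NC libraries and 24.3 to 54.7 CPM in the SiCIRBP libraries, with no overlap. It was thus reduced but still present, and SiCIRBP_2 had the lowest value. Its log2 fold change was -0.81 over NC_2, NC_3, SiCIRBP_1 and SiCIRBP_3 (adjusted p = 0.00828, edgeR). Over all 6 libraries it was -1.07 in edgeR (adjusted p = 0.103) and in DESeq2 (adjusted p = 0.00328). The paper left NC_1 and SiCIRBP_2 out of its own test, as those that differed most in correlation and principal component analysis of these same data. Values over NC_2, NC_3, SiCIRBP_1 and SiCIRBP_3 stand first below, with values over all 6 libraries beside them. As these 4 libraries were kept for their agreement, the p-values over them may be too small. The choice also moved the sizes of the changes, some of them larger and others smaller over 4 libraries than over all 6. Across genes, SiCIRBP_2 correlated with the other libraries at 0.960 to 0.975, and all other pairs of libraries correlated at 0.981 to 0.997. With SiCIRBP_1 and SiCIRBP_3, NC_1 correlated at 0.991 and 0.9901, NC_2 at 0.9855 and 0.9834, and NC_3 at 0.9844 and 0.9813. The left-out NC_1 was thus the NC library closest to these SiCIRBP libraries. The 25 interferon-stimulated genes examined summed to 730.2 to 751 CPM in the NC libraries, with none of the 25 at 3 counts or fewer in every library. IFI44L had the lowest NC mean of them, from 0.455 to 0.787 CPM. The 25 genes summed to 416 to 6879 CPM in the SiCIRBP libraries, and their median difference from the NC mean was -0.78 in SiCIRBP_1, 3.56 in SiCIRBP_2 and 0.83 in SiCIRBP_3 on the log2 scale. Of 13 cardiac markers, 7 had at most 3 counts in every library, namely TNNT2, MYH6, MYH7, MYL2, MYL7, RYR2 and NPPB. All of these but NPPB are defining genes of working cardiomyocytes. GATA4, ACTN2 and, at 3.03 to 9.48 CPM, NKX2-5 were present, and TNNI3, NPPA and TBX5 had at most 1.07 CPM in any library. The 10 fibroblast markers summed to 2877 to 3597 CPM in the NC and 2179 to 6061 CPM in the SiCIRBP libraries, the 5 endothelial markers to 44.1 to 52.4 and 35.3 to 54.5 CPM, and the 6 blood cell markers to 8.15 to 8.47 and 10.9 to 14.0 CPM.

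Over the 4 libraries, JUN and IER2 were upregulated in the SiCIRBP group, by 46.7% and 56.4%. FOSL2 fell by 30.8%, JUNB fell by 28.8% and JUND fell by 35.7%. These 5 of 9 tested members passed an adjusted p-value of 0.05 (edgeR, quasi-likelihood F, Benjamini-Hochberg over all genes). The same test was passed by 9.62% of 15421 genes upward and by 9.76% downward. No member changed by 2-fold or more with an adjusted p-value under 0.05, either in edgeR, where 3.62% of all genes did, or in DESeq2, where 2.91% did. At an unadjusted p-value under 0.05 stood 6 of the 9 members and 36.6% of all genes (edgeR). FOS, FOSB, FOSL1 and EGR1 did not pass, and EGR3 had too few counts to be tested. Without NC_2, and likewise without NC_3, 0 of the 9 passed in edgeR, with the lone NC library assumed to vary like the SiCIRBP libraries, and without SiCIRBP_1 7 passed, FOS and EGR1 being added. Each of the 9 tested members had at least 30 counts in every library. In bulk libraries, fewer cells of a kind and less RNA per cell cannot be told apart.

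Over all 6 libraries, 0 of the 9 tested members and 0 of 15217 genes (0%) passed an adjusted p-value of 0.05 in edgeR, with 5 members and 23.7% of all genes at an unadjusted p-value under 0.05. The 5 members were FOS, FOSL2, JUN, EGR1 and IER2. DESeq2 over the same 6 libraries called JUN, IER2 and FOS at that adjusted p-value, against 9.3% of its 14421 genes. With SiCIRBP_2 alone left out, edgeR called JUN, IER2 and JUNB, against 7.2% of 15530 genes. With no filter on low counts, edgeR over all 6 libraries called 2 members, JUN and IER2, against 3.15% of 28001 genes.

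**Figure D1:**
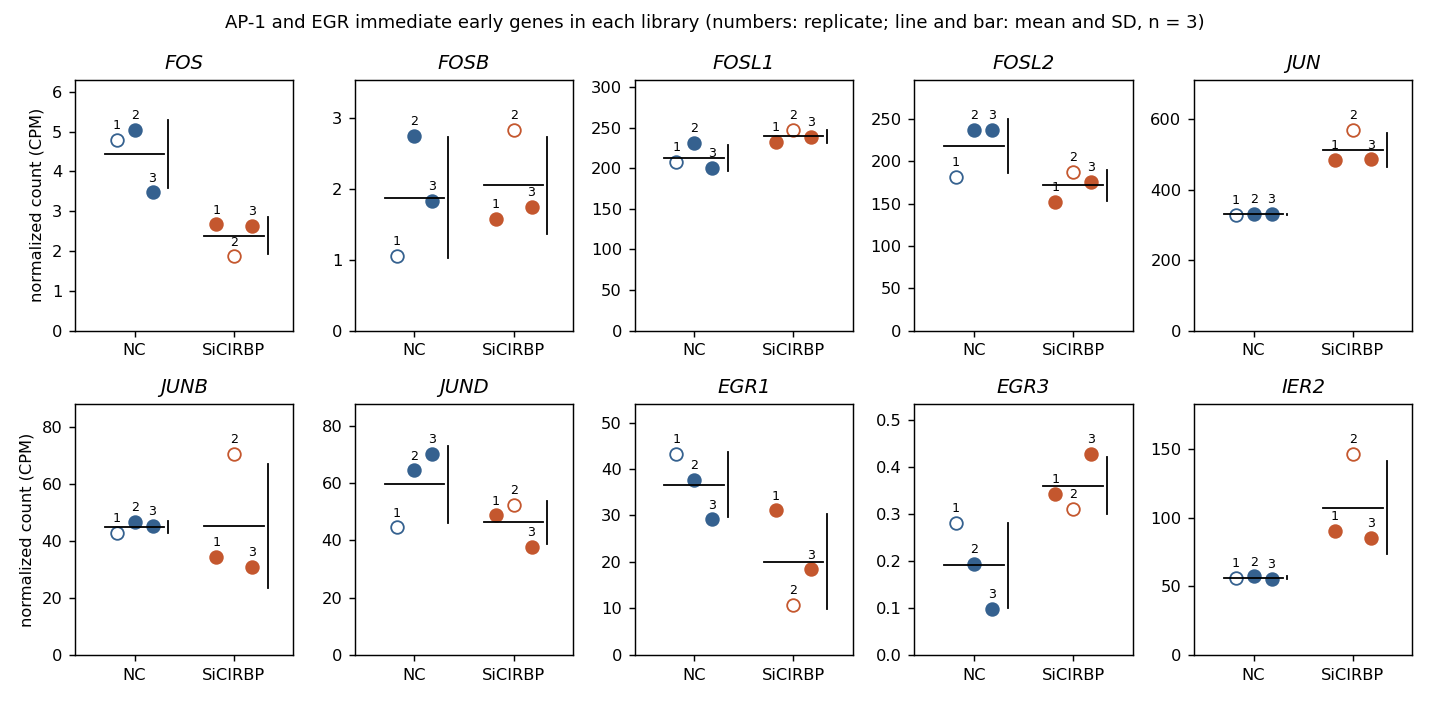
Normalized counts (CPM, linear axis from 0) of the 10 members in each library, with NC in blue and SiCIRBP in orange. Numbers give the replicate, open circles are the libraries that the paper left out, horizontal lines are means and vertical bars the SD (n = 3). JUN and IER2 lie above every NC library in each SiCIRBP library, FOS lies below, and JUNB of SiCIRBP_2 lies at 70.3 CPM, far from the other SiCIRBP libraries.

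**Figure D2:**
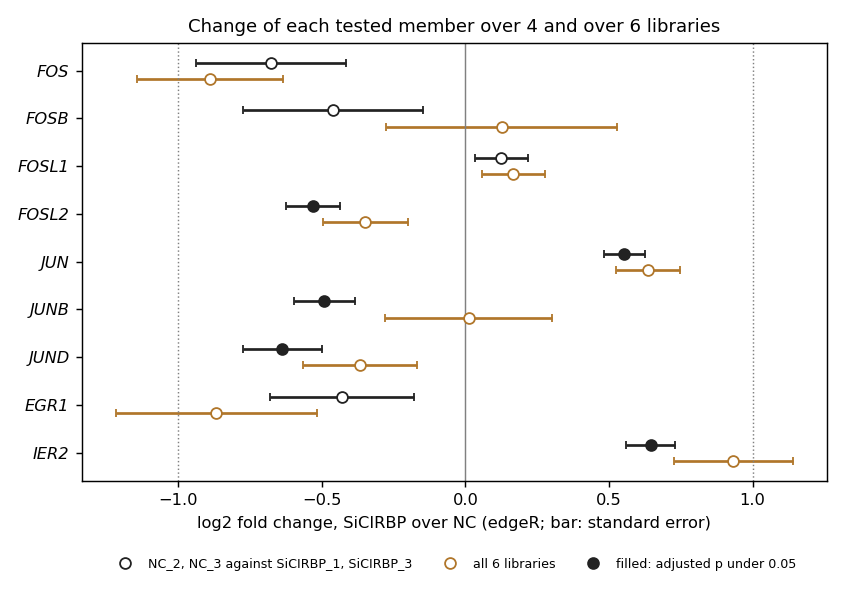
Log2 fold changes of the 9 tested members, SiCIRBP over NC, with standard errors from edgeR, over 4 libraries (black) and over all 6 (ochre). Filled circles passed an adjusted p-value of 0.05, which JUN, IER2, FOSL2, JUNB and JUND did over 4 libraries, dotted lines mark 2-fold, and JUNB and FOSB change sign between the libraries used.

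Among the JUN family, JUN encodes c-Jun, the main dimer partner of the FOS proteins and a target of the JNK kinases. JUN is a gene of a single exon (chr1:58780788-58784327, minus strand, GRCh38). Its promoter is known to be driven by AP-1-type dimers, and the stretch that holds the JUN-type site TGACATCA (capitals) is shown because JUN was upregulated over the 4 libraries. It lies at chr1:58784096-58784125 on the minus strand, with the site 67 to 60 bases before the RefSeq start (RefSeq, GRCh38.p14).
JUN: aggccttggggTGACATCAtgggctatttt
The 8 letters were found on either strand in 2.45% of the 27305 RefSeq windows of 250 bases before a start.

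The normalized count of JUN was 329 CPM in NC_1, 331 in NC_2 and 330.3 in NC_3. It was 484 CPM in SiCIRBP_1, 569 in SiCIRBP_2 and 486 in SiCIRBP_3. All 3 NC libraries lay within 2 CPM of each other, and each SiCIRBP library was above all of them. The log2 fold change over the 4 libraries was 0.55 (SE 0.07, adjusted p = 0.00779, edgeR), and over all 6 it was 0.64 (SE 0.11, adjusted p = 0.0869, edgeR). In DESeq2 over all 6 it was 0.64 (adjusted p = 0.000535). Without SiCIRBP_2 the value was 0.55 (adjusted p = 0.0162, edgeR over 5 libraries), as over the 4 libraries.

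JUNB and JUND encode the other JUN proteins, of which JUNB is itself an immediate early gene and a weaker activator than c-Jun, while JUND is expressed steadily in most cells. Their normalized counts were lower in SiCIRBP_1 and SiCIRBP_3 than in NC_2 and NC_3. JUNB had 42.7, 46.8 and 45.1 CPM in NC_1, NC_2 and NC_3, against 34.5, 70.3 and 30.9 CPM in SiCIRBP_1, SiCIRBP_2 and SiCIRBP_3. SiCIRBP_2 was thus the highest of all 6 libraries and the other SiCIRBP libraries were the lowest. The log2 fold change of JUNB was -0.49 over 4 libraries (SE 0.10, adjusted p = 0.0247, edgeR), -0.46 with NC_1 added (adjusted p = 0.0438, edgeR) and 0.01 over all 6 (SE 0.29, adjusted p = 0.985, edgeR). The interferon-stimulated genes were also at their highest in SiCIRBP_2, whereas in SiCIRBP_3, with JUNB at its lowest, their median lay 0.83 above the NC mean on the log2 scale. Their part in the JUNB value was not tested.

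JUND had 44.5, 64.5 and 70.1 CPM in NC_1, NC_2 and NC_3. It had 48.8, 52.4 and 37.8 CPM in SiCIRBP_1, SiCIRBP_2 and SiCIRBP_3. NC_1 lay among the SiCIRBP libraries, so the groups of 3 overlapped, whereas NC_2 and NC_3 were above all 3 SiCIRBP libraries. JUND changed by -0.64 on the log2 scale over 4 libraries (SE 0.14, adjusted p = 0.025, edgeR) and stood at -0.37 over all 6 (SE 0.20, adjusted p = 0.294, edgeR).

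JUNB lies on chromosome 19 from 12791496 to 12793315 on the plus strand and JUND on chromosome 19 from 18279760 to 18281622 on the minus strand, both with a single exon in their principal transcript. The windows of 250 bases before their RefSeq starts are shown because JUNB and JUND passed the test in the direction opposite to JUN. Capitals mark a TATAAA box 31 to 26 bases before the start of JUNB (chr19:12791236-12791485, plus strand) and the cyclic AMP response element TGACGTCA 200 to 193 bases before the start of JUND (chr19:18281623-18281872, minus strand), in RefSeq GRCh38.p14.
JUNB: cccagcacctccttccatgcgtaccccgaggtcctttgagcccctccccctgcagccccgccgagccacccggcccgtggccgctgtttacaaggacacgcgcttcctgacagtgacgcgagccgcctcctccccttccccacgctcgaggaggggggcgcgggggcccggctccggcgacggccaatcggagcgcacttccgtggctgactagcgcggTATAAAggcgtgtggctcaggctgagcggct
JUND: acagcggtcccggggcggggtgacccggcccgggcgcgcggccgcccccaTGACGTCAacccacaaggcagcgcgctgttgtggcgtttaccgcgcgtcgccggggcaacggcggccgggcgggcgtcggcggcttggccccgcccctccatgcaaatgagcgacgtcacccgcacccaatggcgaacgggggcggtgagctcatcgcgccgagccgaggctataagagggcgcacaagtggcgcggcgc
TATAAA, read on the gene's strand, was present in 7.17% of the 27305 windows and TGACGTCA, read on both strands, in 1.77%. Of the members with a window, FOS and FOSB also held TATAAA. JUNB shares 259 exon bases (14.2% of its exon bases) with HOOK2 on the opposite strand, and whether the counting used strand is not given in the sources used here, so reads from the shared bases cannot be told apart. HOOK2 itself had 16.1 to 23.8 CPM.

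Per length, JUN gave most of the JUN family mRNA. Its level was 129, 130.1 and 134 TPM in NC_1, NC_2 and NC_3, against 183, 191 and 184 TPM in SiCIRBP_1, SiCIRBP_2 and SiCIRBP_3. JUN made up 57.5%, 52.5% and 50.3% of the summed TPM of the 3 JUN genes in NC_1, NC_2 and NC_3, and 68.1%, 64.8% and 70.7% in SiCIRBP_1, SiCIRBP_2 and SiCIRBP_3. JUND made up 26.9%, 32.0% and 35.3% in the NC libraries and 21.8%, 18.5% and 19.9% in the SiCIRBP libraries. The shares of JUN and of JUND did not overlap between the groups, and those of JUNB did. Shares within a family depend on each other, since a higher share of JUN lowers the rest. The summed TPM of the family, 225 to 267 in the NC and 259.9 to 295 in the SiCIRBP libraries, overlapped.

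**Figure D3:**
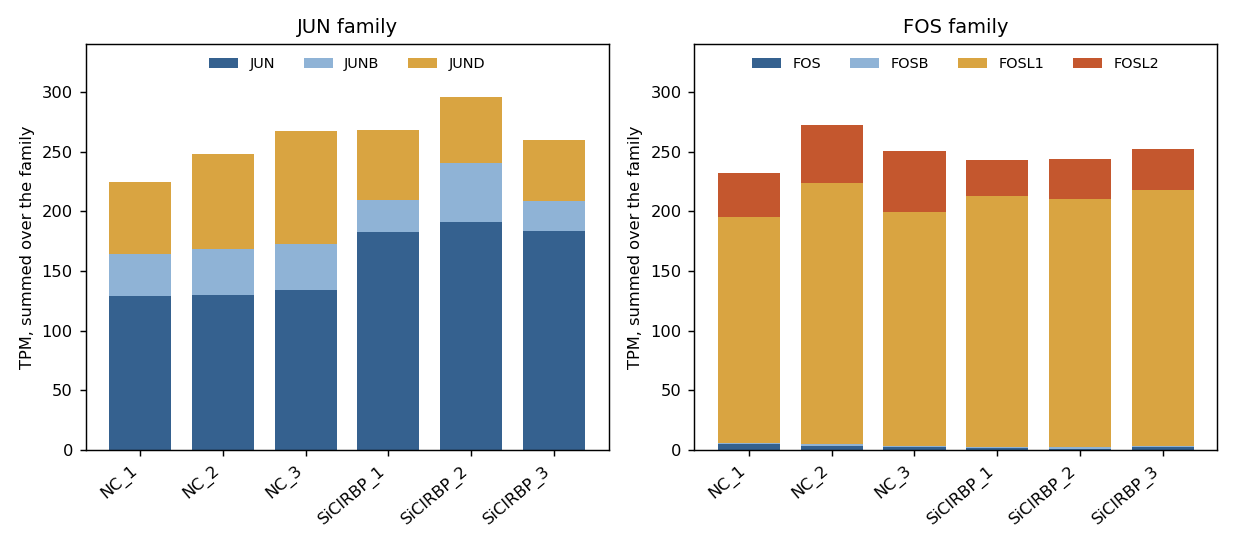
Summed TPM (linear axis from 0) of the JUN family (left) and of the FOS family (right) in each library, stacked by gene. JUN takes 50.3% to 57.5% of its family in the NC libraries and 64.8% to 70.7% in the SiCIRBP libraries, while FOSL1 takes most of the FOS family in all 6.

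Among the FOS family, FOSL1 encodes FRA1 and FOSL2 encodes FRA2, which lack the strong activation domain of c-FOS and are made later and for longer after a stimulus. FOSL1 was the most abundant of the 10 genes per length, and its level in TPM was 189.6, 219 and 196 in NC_1, NC_2 and NC_3 and 210.2, 208 and 214 in SiCIRBP_1, SiCIRBP_2 and SiCIRBP_3. In CPM it had 208, 231 and 200.4 in the NC and 232, 247 and 238 in the SiCIRBP libraries. The CPM values did not overlap, with NC_2 and SiCIRBP_1 separated by 1 CPM, but the TPM values did. The log2 fold change of FOSL1 was 0.13 over 4 libraries (SE 0.09, adjusted p = 0.366, edgeR) and 0.17 over all 6 (SE 0.11, adjusted p = 0.37, edgeR). FOSL1 lies on chromosome 11 from 65892049 to 65900573 on the minus strand, and 6.86% of the 31-base words of its transcripts also occur in the pseudogene FOSL1P1, which had at most 0.0684 CPM.

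FOSL2 had 182, 237 and 237 CPM in NC_1, NC_2 and NC_3 and 152, 187 and 176 CPM in SiCIRBP_1, SiCIRBP_2 and SiCIRBP_3. NC_2 and NC_3 were alike and above all SiCIRBP libraries, whereas NC_1 lay between SiCIRBP_3 and SiCIRBP_2. For FOSL2 the log2 fold change was -0.53 over 4 libraries (SE 0.09, adjusted p = 0.0156, edgeR) and -0.35 over all 6 (SE 0.15, adjusted p = 0.203, edgeR). FOSL2 lies on chromosome 2 from 28392448 to 28417312 on the plus strand. FOSL1 made up 78.2% to 81.7% of the summed TPM of the 4 FOS genes in the NC libraries and 84.8% to 86.7% in the SiCIRBP libraries. The share of FOSL2 was 15.9% to 20.3% and 12.2% to 13.7%, and neither share overlapped between the groups. As both genes together hold nearly all of the family total, their shares mirror each other and are a single difference. In TPM itself FOSL1 overlapped, whereas FOSL2 was lower without overlap, as were 22.6% of all tested genes.

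FOS encodes c-FOS, the best known immediate early protein, and was far less abundant. It lies on chromosome 14 from 75278774 to 75282230 on the plus strand. FOS had 137, 130 and 106 estimated counts in NC_1, NC_2 and NC_3, or 4.80, 5.04 and 3.47 CPM. It had 78, 48 and 74 estimated counts in SiCIRBP_1, SiCIRBP_2 and SiCIRBP_3, or 2.67, 1.87 and 2.63 CPM. Every SiCIRBP library was below every NC library, with SiCIRBP_2 the lowest. For FOS the log2 fold change was -0.68 over 4 libraries (SE 0.26, adjusted p = 0.111, edgeR) and -0.89 over all 6 (SE 0.26, adjusted p = 0.119, edgeR), and it was -0.89 in DESeq2 over all 6 (adjusted p = 0.0397). Of the 4 libraries, NC_2 and NC_3 moved the value, which was -0.39 without NC_2 (adjusted p = 0.577, edgeR) and -0.93 without NC_3 (adjusted p = 0.225, edgeR). The transcript length implied by the ratio of counts to TPM was 0.78 times that of the median library in NC_1 and SiCIRBP_3 and 0.969 to 1.17 times in the other libraries. The TPM values, 5.20, 3.67 and 2.89 in the NC and 2.22, 1.30 and 2.72 in the SiCIRBP libraries, still did not overlap, although NC_3 and SiCIRBP_3 came close.

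FOSB, whose protein has a truncated form known for its stability, lies on chromosome 19 from 45467995 to 45475179 on the plus strand. It had 1.05, 2.76 and 1.84 CPM in the NC and 1.57, 2.84 and 1.74 CPM in the SiCIRBP libraries, from 30 to 73 counts each. The groups overlapped, with the lowest value in NC_1 and the highest in SiCIRBP_2. For FOSB the log2 fold change was -0.46 over 4 libraries (SE 0.31, adjusted p = 0.327, edgeR) and 0.13 over all 6 (SE 0.40, adjusted p = 0.864, edgeR). Of the 4 libraries, it was -0.15 without NC_2 (adjusted p = 0.883, edgeR) and -0.73 without NC_3 (adjusted p = 0.395, edgeR).

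EGR1, a zinc-finger activator induced through serum response factor (SRF) and its ternary complex partners, is a gene of 2 exons on chromosome 5, from 138465490 to 138469315 (plus strand). The 250 bases before its RefSeq start (chr5:138465229-138465478, plus strand, RefSeq GRCh38.p14) are shown because they hold the CArG box, the binding site of SRF, whose own mRNA level is given further on. Of the 8 member windows examined, no other held it, and bases further from each start were not searched. Whether SRF had a part in the EGR1 level was not tested. Capitals mark the 2 CArG boxes of this window, 105 to 96 and 83 to 74 bases before the start.
EGR1: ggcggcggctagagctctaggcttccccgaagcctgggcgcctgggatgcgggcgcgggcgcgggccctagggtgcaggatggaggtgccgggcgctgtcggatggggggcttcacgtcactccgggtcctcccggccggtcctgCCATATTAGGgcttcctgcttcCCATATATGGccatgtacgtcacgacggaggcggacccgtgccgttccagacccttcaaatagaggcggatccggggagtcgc
A CArG box, a motif that reads alike on both strands, was present in 1.14% of the 27305 windows. The AP-1 site TGACTCA (4.16% of windows) and the EGR site GCGTGGGCG (0.71%), searched on both strands, were in none of the 8 member windows examined, which says only that these letters are not in them.

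EGR1 had 43.2, 37.6 and 29.2 CPM in NC_1, NC_2 and NC_3. It had 31.1, 10.7 and 18.4 CPM in SiCIRBP_1, SiCIRBP_2 and SiCIRBP_3. SiCIRBP_1 lay between NC_3 and NC_2, so the groups overlapped, and SiCIRBP_2 was the lowest. The fitted log2 difference of EGR1 was -0.43 over 4 libraries (SE 0.25, adjusted p = 0.26, edgeR) and -0.87 over all 6 (SE 0.35, adjusted p = 0.188, edgeR). The value over 4 libraries rested on which libraries were used, being -0.86 without SiCIRBP_1 (adjusted p = 6.83e-15, edgeR) and -0.10 without SiCIRBP_3 (adjusted p = 0.417, edgeR). It was -0.24 without NC_2 (adjusted p = 0.703, edgeR) and -0.61 without NC_3 (adjusted p = 0.347, edgeR), and in each case the lone library of a group was assumed to vary like those of the other group. In TPM, EGR1 was 19.3, 16.8 and 13.5 in the NC and 13.4, 4.11 and 7.94 in the SiCIRBP libraries, where NC_3 and SiCIRBP_1 nearly met.

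EGR3, a relative of EGR1 that is induced in muscle spindles and lymphocytes, lies on chromosome 8 from 22687659 to 22693302 on the minus strand. It was close to the limit of detection, with 8, 5 and 3 estimated counts in NC_1, NC_2 and NC_3 and 10, 8 and 12 in SiCIRBP_1, SiCIRBP_2 and SiCIRBP_3. It did not pass the filter on low counts. Its CPM values, 0.280, 0.194 and 0.0983 in the NC and 0.342, 0.311 and 0.427 in the SiCIRBP libraries, did not overlap, whereas its TPM values did, so no difference of EGR3 was detectable at this depth.

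IER2 showed the largest upward log2 fold change among the tested members over the 4 libraries. It lies on chromosome 19 from 13150415 to 13154908 on the plus strand. IER2 had 56.3, 57.3 and 55.3 CPM in NC_1, NC_2 and NC_3 and 90.2, 146 and 85.6 CPM in SiCIRBP_1, SiCIRBP_2 and SiCIRBP_3. The NC libraries were within 3 CPM of each other, all SiCIRBP libraries were higher, and SiCIRBP_2 stood above the other SiCIRBP libraries. For IER2 the log2 fold change was 0.64 over 4 libraries (SE 0.09, adjusted p = 0.0082, edgeR), 0.93 over all 6 (SE 0.21, adjusted p = 0.0958, edgeR) and 0.94 in DESeq2 over all 6 (adjusted p = 0.00212). Without SiCIRBP_2 it was 0.64 (adjusted p = 0.0165, edgeR over 5 libraries). The antisense gene AC011446.2 shares 946 exon bases (30.8%) with IER2 and was given at most 0.0655 CPM, and reads from the shared bases cannot be told apart without strand.

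In the order of levels per length, the NC means were 201 TPM for FOSL1, 131 for JUN, 78.0 for JUND, 45.2 for FOSL2, 38.3 for IER2, 37.3 for JUNB, 16.6 for EGR1, 3.92 for FOS, 0.937 for FOSB and 0.137 for EGR3. Of the neighbours in this order, FOSL2 and IER2 overlapped between libraries, as did IER2 and JUNB, and the others did not. In the SiCIRBP group IER2 (66.9 ± 16.7 TPM, SD, n = 3) came next after JUN, overlapping JUND (54.9 ± 3.39 TPM), and JUNB (33.6 ± 13.7 TPM) overlapped FOSL2 (32.3 ± 2.54 TPM). The other places in the order were held by the same genes in both groups.

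In 3 against 3 libraries, 5 members did not overlap in CPM, namely JUN, IER2, FOSL1 and EGR3, which were higher in the SiCIRBP group, and FOS, which was lower. Of all tested genes, 16.2% were higher without overlap and 16.6% lower. EGR3 did not pass the filter on low counts, so it is not among the genes behind these shares. The exact two-sided permutation test gave p = 0.1 for each of the 5, the smallest that 3 against 3 libraries allow. In TPM, the JUN and IER2 levels were higher without overlap and those of FOS, FOSL2, JUND and EGR1 lower, against 8.61% of all genes higher and 22.6% lower. The TPM scale moved the median of all genes by -0.12 on the log2 scale over all 6 libraries, and by -0.09 over 4. On log2(TPM + 0.5), limma over 4 libraries gave 0.47 for JUN, 0.56 for IER2, -0.62 for FOSL2, -0.57 for JUNB and -0.65 for JUND, with adjusted p-values of 0.0318 to 0.0401. Relative to the median of all genes, which was not itself tested, these changes were 0.56, 0.65, -0.54, -0.48 and -0.56.

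The 40 other immediate early genes examined include the NR4A orphan nuclear receptors, the CCN matrix proteins and the CEBP factors. Over the 4 libraries, 3 of 39 tested were upregulated and 17 downregulated at an adjusted p-value under 0.05 (edgeR), where 9.62% and 9.76% of all genes passed. The list's median log2 fold change was -0.33 against -0.002 for all genes. With the 2-fold minimum, 2 were upregulated and 7 downregulated, where 1.82% and 1.8% of all genes were, and without NC_2 or without NC_3 the 9 became 5 (1 up and 4 down). RHOB, a small GTPase of endosomes, rose from 15.7 and 17.9 CPM in NC_2 and NC_3 to 94.5 and 61.9 CPM in SiCIRBP_1 and SiCIRBP_3, with a log2 fold change of 2.22 (adjusted p = 0.00465, edgeR). TRIB1, a pseudokinase that directs CEBP proteins to degradation, rose by 1.40 (adjusted p = 0.0137, edgeR). RHOB had 22.8 CPM in NC_1 and 71.5 CPM in SiCIRBP_2, and TRIB1 had 50.4 and 66.6 CPM there. Over all 6 libraries RHOB stood at 2.02 (adjusted p = 0.0853) and TRIB1 at 1.03 (adjusted p = 0.106) in edgeR.

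Among the downregulated genes, NR4A1 had 32.0 and 32.5 CPM in NC_2 and NC_3 and 8.86 and 7.55 CPM in SiCIRBP_1 and SiCIRBP_3 (log2 fold change -1.97, adjusted p = 0.00262, edgeR). NR4A2 fell by 2.88 and NR4A3 fell by 2.55 on the log2 scale (adjusted p = 0.00399 and 0.00465, edgeR). NC_1 was apart from the other NC libraries in all 3, with 15.9 CPM for NR4A1, 1.30 for NR4A2 and 1.47 for NR4A3, the last against 5.90 and 5.57 CPM in NC_2 and NC_3. In SiCIRBP_2, NR4A1 had 10.4 CPM, NR4A2 1.67 and NR4A3 1.24, and the groups of 3 overlapped for NR4A2 only. Over all 6 libraries NR4A1 stood at -1.59 (adjusted p = 0.0869), NR4A2 at -1.98 (adjusted p = 0.122) and NR4A3 at -2.01 (adjusted p = 0.103) in edgeR. CCN2, a secreted matrix protein known as a target of SRF and YAP, had 1026 and 878 CPM in NC_2 and NC_3 and 356 and 237 CPM in SiCIRBP_1 and SiCIRBP_3, with 529.7 CPM in NC_1 and 282 CPM in SiCIRBP_2 (log2 fold change -1.68, adjusted p = 0.00605, edgeR). CCN2 stood at -1.48 over all 6 libraries (adjusted p = 0.0869, edgeR). MAFF (-1.03), CEBPB (-1.05) and CEBPD (-1.46) were also downregulated (adjusted p = 0.00605, 0.00766 and 0.021, edgeR). MAFF over all 6 libraries stood at -0.48 (adjusted p = 0.341), CEBPB at -0.63 (adjusted p = 0.173) and CEBPD at -1.33 (adjusted p = 0.0869) in edgeR, with the groups overlapping for MAFF and CEBPB. Over all 6 libraries 0 of the 39 and 0 of 15217 genes passed in edgeR. At an unadjusted p-value under 0.05 stood 19 of the 39 and 23.7% of all genes, and the list's median was -0.22 against 0.01 for all genes. Of the genes named here, RHOB (adjusted p = 1.33e-15), CCN2 (5.2e-06), NR4A1 (1.51e-05) and CEBPD (0.000126) passed in DESeq2 over all 6 libraries. TRIB1 (0.00543), NR4A2 (0.00951) and NR4A3 (0.00245) also did, whereas CEBPB (0.0924) and MAFF (0.306) did not. DESeq2 passed 9.3% of 14421 genes there.

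**Figure D4:**
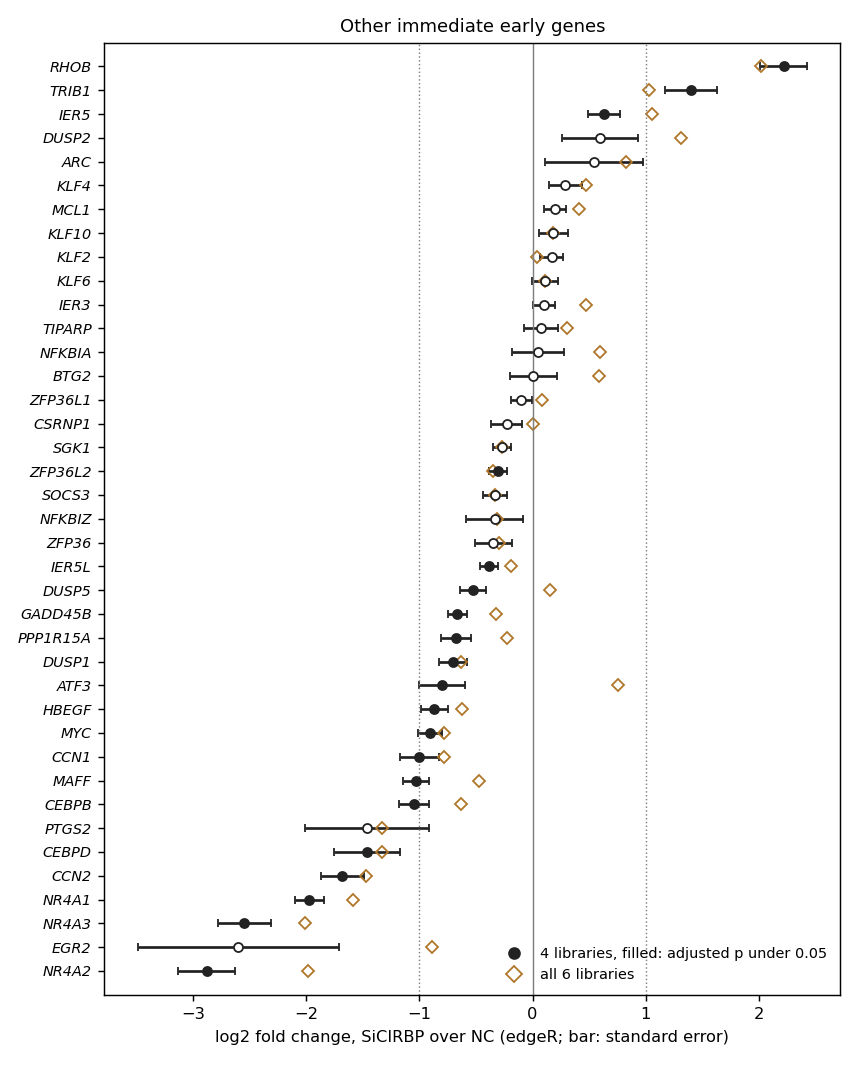
Log2 fold changes of the 39 tested other immediate early genes, SiCIRBP over NC, over 4 libraries (black, with standard errors, filled where the adjusted p-value was under 0.05) and over all 6 (open diamonds). NR4A2, at -2.88, and RHOB, at 2.22, mark the ends, and ATF3 lies at -0.80 over 4 libraries and at 0.75 over 6.

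Of 37 kinases and promoter factors upstream of these genes, 2 were upregulated and 7 downregulated over 4 libraries at an adjusted p-value under 0.05 (edgeR), where 9.62% and 9.76% of all genes passed, with a list median of -0.19 on the log2 scale. Of the 37, 0 passed over all 6 libraries in edgeR, as of all 15217 genes. An unadjusted p-value under 0.05 was reached there by 11 of the 37 and by 23.7% of all genes. RPS6KA5, which encodes the histone and CREB kinase MSK1, was the one that passed 2-fold, with 15.2 and 16.1 CPM in NC_2 and NC_3 and 7.66 and 7.55 CPM in SiCIRBP_1 and SiCIRBP_3 (log2 fold change -1.04, adjusted p = 0.00769, edgeR). RPS6KA5 stood at -0.98 over all 6 libraries in edgeR (adjusted p = 0.0869) and at -0.97 in DESeq2 (adjusted p = 0.000674). SRF, which binds the CArG boxes shown above and was named here after its values were seen, had 93.0, 136 and 139.9 CPM in the NC and 80.4, 105 and 70.4 CPM in the SiCIRBP libraries. Its log2 fold change was -0.87 over 4 libraries (adjusted p = 0.00578, edgeR) and -0.53 over all 6 (adjusted p = 0.175, edgeR), and the groups of 3 overlapped through NC_1 and SiCIRBP_2. Within the groups, SRF was lowest in NC_1, where EGR1 was highest, and highest in SiCIRBP_2, where EGR1 was lowest. The SRF partners ELK1 (-0.23), ELK3 (-0.41), ELK4 (-0.21), MRTFA (-0.28) and MRTFB (-0.10) did not pass over 4 libraries (edgeR).

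Of 14 tested partners and inhibitors of AP-1 and EGR proteins, 0 were upregulated and 5 downregulated at an adjusted p-value under 0.05 over 4 libraries (edgeR), where 9.62% and 9.76% of all genes passed. At an unadjusted p-value under 0.05 stood 10 of the 14 and 36.6% of all genes, and the list median was -0.40 on the log2 scale. Of the 14, 0 passed over all 6 libraries in edgeR, as of all 15217 genes. An unadjusted p-value under 0.05 was reached there by 7 of the 14 and by 23.7% of all genes. MAFK, a small MAF protein that pairs with other leucine-zipper factors, had 143, 249 and 278 CPM in the NC and 103, 98.7 and 106 CPM in the SiCIRBP libraries, without overlap. Its log2 fold change was -1.34 over 4 libraries (adjusted p = 0.00262, edgeR) and -1.13 over all 6 (adjusted p = 0.0913, edgeR). For MAFK, DESeq2 over all 6 gave -1.125 (adjusted p = 0.000418).

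Of 20 tested genes that AP-1 or EGR1 are known to regulate, 3 were upregulated and 6 downregulated over 4 libraries at an adjusted p-value under 0.05 (edgeR), where 9.62% and 9.76% of all genes passed, with a list median of -0.31 on the log2 scale. Of the 20, 0 passed over all 6 libraries in edgeR, as of all 15217 genes. An unadjusted p-value under 0.05 was reached there by 7 of the 20 and by 23.7% of all genes, and the list median was -0.14. The cytokine IL6 fell most, from 54.4 and 59.7 CPM in NC_2 and NC_3 to 8.08 and 5.80 CPM in SiCIRBP_1 and SiCIRBP_3 (log2 fold change -3.04, adjusted p = 0.00262, edgeR), with 16.3 CPM in NC_1 and 12.6 CPM in SiCIRBP_2. Over all 6 libraries IL6 stood at -2.30 in edgeR (adjusted p = 0.0913) and in DESeq2 (adjusted p = 0.00777). The cytokine LIF (-1.32, adjusted p = 0.0156) and the growth factor PDGFB (-1.42, adjusted p = 0.0439) were also downregulated in edgeR over 4 libraries. Over all 6, where both groups overlapped, LIF stood at -0.82 (adjusted p = 0.184, edgeR) and PDGFB at -0.44 (adjusted p = 0.623, edgeR). Their adjusted p-values in DESeq2 over all 6 were 0.077 for LIF and 0.66 for PDGFB. PDGFB had at most 2.13 CPM in any library.

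The genes whose log2(CPM + 1) followed a member most closely over the 6 libraries were looked up among 3084 candidates for FOS, FOSL1, JUN and EGR1. For JUN they were NOLC1, MIDN and TUBB3, with Pearson's r of 0.995, 0.995 and 0.994. NOLC1, a nucleolar protein, had 200.3 to 219.7 CPM in the NC and 341 to 435 CPM in the SiCIRBP libraries. For FOS they were CCL2 (0.988), CCDC3 (0.971) and PLXNC1 (0.953), and the chemokine CCL2 had 232 to 309 CPM in the NC and 107 to 154 CPM in the SiCIRBP libraries. EGR1 was followed by GOLM1 (0.984), AC011455.2 (0.978) and PROSER3 (0.977), and FOSL1 by ZCCHC2 (0.885), EXOSC3 (0.884) and SH3BGRL3 (0.866). These 6 points share the difference between the groups and the state of each library, and the values are a description.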

How the data were processed

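The authors deposited an estimated count and a TPM value for each gene and library. The submitters' processing notes name fastp, HISAT, RSEM and the genome build hg38, with no versions. The deposited table also holds fold changes, log2 fold changes and p-values of the authors' own comparisons, which were not used, and a length column. Groups and replicate numbers came from the labels. Counts were rounded, and edgeR 4.0.16 was run in R 4.3.3 (TMM, filterByExpr, quasi-likelihood test), with Benjamini-Hochberg adjustment over all genes tested. Genes past an adjusted p-value of 0.05 and 2-fold were called, and counts at the adjusted p-value alone were added after seeing the data. The paper's choice of libraries, made from their expression data, set the 4 used first. DESeq2 1.42.0, limma 3.58.1 on log2(TPM + 0.5) and exact permutation in scipy 1.17.1 on log2(CPM + 1) stood beside it. Gene locations came from GENCODE 29, in which 58552 identifiers were found, and promoter windows from RefSeq GRCh38.p14, which had an entry for 8 members other than FOSL1 and EGR3, the latter not shown.

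The members and the lists were chosen with earlier results of these data known. The genes named are the members, CIRBP, the genes of each list that were called (at most 8 per direction with the smallest p-values), and for 4 members the 3 genes of highest Pearson's r among those with at least 10 CPM and an SD of at least 0.3. TGFB1 was not analysed here. On simulated data, edgeR over 4 libraries recovered 51% of genes changed by a log2 of 0.6 and 99% of those changed by 1.5 among 15094 genes, and over 6 libraries 75% and 100% among 15022. All simulated libraries took the spread estimated from the 4 real libraries, and none was set apart from the rest. The shares over 6 libraries therefore do not tell how many changes edgeR could find in the 6 real libraries. Only 100 genes of each size were changed, all above a minimum mean count. Each gene took the spread typical of its level, with none of its own. The shares over 4 libraries hold for these settings and need not hold in the real data. The alternatives comprised DESeq2, RLE size factors, limma on TPM, other filters on low counts, length and GC offsets (those over 6 libraries added after seeing the data), omission of each library, all 6 libraries and the block of replicate numbers.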

Additional observations from a re-analysis of the deposited data

How the results depend on the processing

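No member was called at 2-fold under any alternative run. Of 117 member fold changes recomputed, 85 kept their direction and side of the adjusted p-value, 21 kept their direction but no longer passed, 6 now passed, and 5 reversed, namely FOSB (0.13 over all 6 libraries, 0.17 with the replicate block, 0.13 in DESeq2 over 6) and JUNB (0.011 over all 6 in edgeR and 0.0144 in DESeq2). The members past the adjusted p-value, 5 over 4 libraries, were 0 over all 6, 0 with the replicate block over all 6, 3 in DESeq2 over all 6 and 0 to 7 with each library left out, with 0 without NC_2, 0 without NC_3 and 7 without SiCIRBP_1. JUN (adjusted p = 0.0921 and 0.123) and IER2 (0.0937 and 0.142) were among those that edgeR no longer called without NC_2 and without NC_3, at log2 fold changes that stayed between 0.545 and 0.552 for JUN and between 0.60 and 0.68 for IER2. FOS passed without SiCIRBP_1 and without SiCIRBP_3 (0.0318 and 0.0399, edgeR), and with no filter on low counts FOS and EGR1 passed over 4 libraries too (0.0425 and 0.013, edgeR), which made 7 members. Over all 6 libraries, the members past the adjusted p-value in edgeR were 0 with the filter and 2 with no filter on low counts, 3 in DESeq2 and 0 to 3 with each library left out, the 3 being without SiCIRBP_2. The 559 genes called in all over 4 libraries were 873 with no filter, 369 in DESeq2, 338 in limma on TPM (111 up and 227 down, against 281 and 278), 0 over all 6, 1 with the replicate block, 324 in DESeq2 over all 6 and 61 to 1167 with each library left out. The 9 other immediate early genes called were 0 over all 6, 1 with the replicate block, 8 in DESeq2 over all 6 (3 up and 5 down) and 5 to 13 with each library left out. The cause of these changes was not tested.

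The 4 libraries share only the replicate number 3, so the replicate block was fitted over all 6, where it moved the calls as given. Libraries of the same number did not deviate together (r = -0.118, 0.00605 and -0.0264 for numbers 1, 2 and 3 over 15217 genes) and share only a number. With the block, JUN was 0.63 (adjusted p = 0.153) and IER2 0.89 (adjusted p = 0.144) in edgeR. With 2 libraries per group the test takes the spread largely from other genes, and counting error is large for EGR3 and FOSB.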

Other observations

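Of 17 factors of AU-rich element mRNA decay, the route by which many immediate early mRNAs are degraded, 2 were upregulated and 2 downregulated over 4 libraries at an adjusted p-value under 0.05 in edgeR, near the 9.62% and 9.76% of all genes that did, with a median log2 fold change of 0.035. None passed 2-fold in edgeR, where 3.62% of all genes did, and 6 had an unadjusted p-value under 0.05, against 36.6% of all genes. Named after their values were seen, ZC3H12A, an endonuclease that cuts cytokine mRNAs, had a log2 fold change of 0.76 (adjusted p = 0.0322) and the 5′ exonuclease XRN1 of -0.54 (adjusted p = 0.0407). ZC3H12A reached an adjusted p-value of 0.124 and XRN1 of 0.13 over all 6 libraries in edgeR, and of 0.046 and 0.051 in DESeq2.

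Among the cell type markers, NKX2-5, a cardiac transcription factor, was downregulated over 4 libraries (log2 fold change -1.24, adjusted p = 0.016, edgeR), with 8.34 and 6.16 CPM in NC_2 and NC_3 and 3.08 and 3.03 CPM in SiCIRBP_1 and SiCIRBP_3, but 5.50 CPM in NC_1 and 9.48 CPM in SiCIRBP_2, and -0.36 over all 6 (adjusted p = 0.639, edgeR). VWF, an endothelial protein, was upregulated (2.56, adjusted p = 0.0369, edgeR) at no more than 0.547 CPM in any library. Of the 25 interferon-stimulated genes, 0 passed in edgeR over 4 libraries, with 0 at an unadjusted p-value under 0.05, against 36.6% of all genes. Over all 6 libraries 0 of the 25 passed in edgeR, as of all 15217 genes. There 12 had an unadjusted p-value under 0.05, against 23.7% of all genes, and the list's median log2 fold change was 2.33.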
